A study of Mus musculus with 8 samples.

Results

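Transcripts of the epithelial basement membrane and of its cell-surface receptors were followed in primary tubular epithelial cells (TECs) of mouse kidney. Members were the rows of the deposited table whose symbol is a laminin chain, an integrin α chain named by a number, v or e, an integrin β chain other than β2, or 1 of 19 further genes named one by one. They number 40 of 14145 genes, 19 of them matrix components and 21 receptors. Of the 19 named genes, Frem1, Ddr2 and Fbln1 were not among the genes analysed here.

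The knockout libraries (knockout 1 to 4) came from Aldh2TEC-KO mice, named as a knockout in tubular epithelial cells, and the control libraries (control 1 to 4) from Aldh2Ctrl mice. Both sets of cells were grown in DMEM/F12 with serum and received no treatment. The sources used here give neither strain, age, pooling of animals nor the promoter that drives the deletion, and the genotype field of knockout 2 to 4 names ALDH3, ALDH4 and ALDH5, so groups follow the sample titles. Nothing states that libraries came from separate animals, so p-values reflect library-to-library spread alone, possibly technical. Values are FPKM, fragments scaled by gene length and by library size, which can be compared between genes, and p-values are from limma on log2(FPKM + 1), adjusted over all genes. In bulk RNA, fewer cells of a type and less RNA per cell cannot be told apart.

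A basement membrane is a sheet of matrix on which epithelial cells rest. Laminins, trimers of an α, a β and a γ chain, form 1 of its networks and collagen IV forms another, with nidogens, perlecan and agrin linking the networks. Cells hold the sheet through integrins, heterodimers of an α and a β chain, and through dystroglycan, syndecans and other receptors. In the adult tubule, laminins with the α5 chain prevail, while the α3 and β3 chains are known from stratified epithelia and from migrating or injured epithelium.

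Aldh2 was 1.24 ± 0.310 FPKM in knockouts and 26.4 ± 3.24 FPKM in controls (SD, n = 4 each), so knockouts held 4.71% of the control level (log2 fold change -3.61, SE 0.17, limma adjusted p = 3.43e-05). Recovered depths were 17890000 to 18750000 reads per knockout library and 17040000 to 17750000 per control library. Knockout 1 and 2 carried Xist, with Y-linked transcripts summing to 0.0653 FPKM or less, while knockout 3 and 4 and all controls were male by the same transcripts, so sex and genotype are partly confounded. All 10 markers of tubular epithelium were measured and summed to 872 to 6664 FPKM in knockouts and 1466 to 3258 FPKM in controls. Of these 10, 5 had higher means and 5 lower, and 3 were lower and none higher at an unadjusted p below 0.05 (limma; 11.6% of all genes lower), namely Epcam at 46.5%, Cdh1 at 48.4% and Lhx1 at 31.3% of the control mean. Of 10 proximal tubule markers 6 were measured, summing to 14.3 to 49.3 FPKM in knockouts and 22.3 to 80.4 FPKM in controls. Markers of macrophages and leukocytes (13 of 13 measured) summed to 225 to 1676 FPKM in knockouts and 92.9 to 1034 FPKM in controls. Knockout means were higher for 12 of these 13 and lower for 1. On the log2 scale the median of the 13, knockout minus control, was 1.31. At an unadjusted p below 0.05 (limma) 4 were higher and 0 lower (7.58% of all genes higher). Control 1, at a median of 1.96 relative to the control mean, lay among the knockouts, at -0.02 to 2.38. Control 2 to 4 lay below every knockout. The part of these markers in the member values was not tested. Markers of fibroblasts and pericytes (9 of 12) summed to 599 to 1772 FPKM in knockouts and 140.0 to 1192 FPKM in controls. Most of these 9 went the other way from the sums, 7 having lower knockout means and 2 higher. Their middle value on the log2 scale, knockout minus control, was -1.08. Markers of endothelium (4 of 10) summed to 1.97 to 3.83 FPKM in knockouts and 5.62 to 8.36 FPKM in controls.

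No member passed an adjusted p of 0.05 (limma, 0 of 40, with 0.0778% of all genes passing). At an unadjusted p below 0.05 stood 9 members (2 higher and 7 lower in knockouts), with 19.2% of all genes at that level. Groups of libraries did not overlap for 6 members, Tinagl1 and Cd151 higher in every knockout and Itgb3, Itgb6, Itgav and Lamb1 lower in every knockout, with 11.6% of all genes not overlapping (4.76% higher and 6.86% lower). Means of log2(FPKM + 1), used for all counts of higher and lower means, were lower in knockouts for 30 members, as for 55.5% of all genes, and higher for 10, and the members' median log2 difference was -0.30, with -0.06 over all genes. The authors' deposited table marks 6 members, up for Cd151 and Tinagl1 and down for Frem2, Itgb3, Itgb6 and Itgb8, with marks on 5.71% of all genes (2.34% up and 3.37% down), and the lowest adjusted p it gives a member is 0.0683, for Itgb3.

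Promoters of 5 of the 6 members whose groups did not overlap are shown, from RefSeq on GRCm38.p6, 250 bases before to 50 after a start site, 5′ to 3′. Of 40 members 29 had a window. Capitals mark matches on either strand to AP-1 (TGANTCA), SP1 (GGGCGG), the antioxidant response element (TGACNNNGC), the CCAAT box (CCAAT) or the TATA box (TATAAA). The windows are chr2:83724147-83724446, + strand, for Itgav, chr2:60722554-60722853, - strand, for Itgb6, chr4:130175073-130175372, - strand, for Tinagl1, chr7:141467112-141467411, + strand, for Cd151, and chr12:31265043-31265342, + strand, for Lamb1.
Itgav: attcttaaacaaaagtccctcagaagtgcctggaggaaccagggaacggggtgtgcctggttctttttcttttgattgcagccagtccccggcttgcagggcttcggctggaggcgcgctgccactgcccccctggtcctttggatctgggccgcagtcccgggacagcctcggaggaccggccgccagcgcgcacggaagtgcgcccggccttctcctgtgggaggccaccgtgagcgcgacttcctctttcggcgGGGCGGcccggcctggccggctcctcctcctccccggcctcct
Itgb6: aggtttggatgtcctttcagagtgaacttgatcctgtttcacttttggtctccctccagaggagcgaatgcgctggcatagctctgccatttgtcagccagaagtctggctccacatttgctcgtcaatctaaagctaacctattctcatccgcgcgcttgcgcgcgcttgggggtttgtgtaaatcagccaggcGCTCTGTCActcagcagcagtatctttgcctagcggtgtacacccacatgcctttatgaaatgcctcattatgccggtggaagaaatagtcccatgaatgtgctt
Tinagl1: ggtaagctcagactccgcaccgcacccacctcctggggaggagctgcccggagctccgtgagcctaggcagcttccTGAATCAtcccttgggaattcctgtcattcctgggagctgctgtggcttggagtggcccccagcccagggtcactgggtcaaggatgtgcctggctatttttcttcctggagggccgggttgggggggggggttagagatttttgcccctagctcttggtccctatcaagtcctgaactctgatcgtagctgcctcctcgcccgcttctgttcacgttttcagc
Cd151: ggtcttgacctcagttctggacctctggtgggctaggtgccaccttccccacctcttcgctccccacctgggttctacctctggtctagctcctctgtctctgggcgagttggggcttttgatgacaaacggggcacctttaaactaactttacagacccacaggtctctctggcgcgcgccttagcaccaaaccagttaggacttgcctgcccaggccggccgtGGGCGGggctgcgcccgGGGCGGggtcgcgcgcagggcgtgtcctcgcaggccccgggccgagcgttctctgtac
Lamb1: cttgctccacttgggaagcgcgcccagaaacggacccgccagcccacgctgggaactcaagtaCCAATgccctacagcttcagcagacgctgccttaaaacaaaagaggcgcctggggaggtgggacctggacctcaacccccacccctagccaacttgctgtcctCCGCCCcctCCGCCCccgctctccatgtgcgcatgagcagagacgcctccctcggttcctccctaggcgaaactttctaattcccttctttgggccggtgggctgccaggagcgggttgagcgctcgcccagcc
The Itgav window holds 1 SP1 match and the Cd151 and Lamb1 windows 2 each, and 35.7% of the 32851 windows of the table hold at least 1. The Itgb6 window holds 1 match to the antioxidant response element, found in 12.4% of windows, and the Tinagl1 window 1 match to AP-1, found in 7.81%. The Lamb1 window also holds 1 CCAAT box, found in 37.4% of windows, and no window of the 5 holds a TATA box (13.6%). G and C made up 67.3% of the Itgav, 50.3% of the Itgb6, 60.0% of the Tinagl1, 64.3% of the Cd151 and 63.7% of the Lamb1 window.

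Members were long genes. Their median exon length was 6979 bp, against 3956 bp over all genes. The 2936 genes at least that long lay at medians of -0.29, 0.0010, -0.64 and -0.47 on the log2 scale in knockout 1 to 4 relative to the control mean, and between -0.08 and 0.06 in the controls. Long genes thus read lower in knockout 1, 3 and 4. After each library was detrended on length and GC content, the members' median was -0.19 and that of all genes 0.0028, and 28 of 40 members were lower. No member then passed (limma, 0 of 40, with 0.0141% of all genes passing, all of them lower), and 6 of 40 were at an unadjusted p below 0.05, 3 higher and 3 lower, with 20.3% of all genes at that level and 9.55% higher. Detrended values are given below for the members with full statistics and for some others, and are plotted with the log2 differences, and how far length sets their differences was not tested.

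Matrix components were mostly lower in knockouts, without a call. Of the 19, 15 had lower means and 4 higher, with a median log2 difference of -0.34. The median by library was -0.74, -0.26, -0.17 and -0.25 in knockout 1 to 4, against 0.08, 0.09, -0.01 and -0.14 in control 1 to 4, so each knockout lay below each control. Over all genes the medians were -0.06, 0.04, -0.17 and -0.08 in knockout 1 to 4, and between -0.0059 and 0.0084 in the controls. In knockout 3 the matrix median was thus close to that of all genes. After detrending on length and GC, the matrix medians were -0.24, -0.26, 0.14 and -0.10 in knockout 1 to 4, and knockout 3 then lay above all controls, at 0.05, 0.09, 0.02 and -0.09. At an unadjusted p below 0.05 were Tinagl1 (higher) and Frem2 (lower), 2 of 19 or 10.5%, below the 19.2% of all genes.

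**Figure D1:**
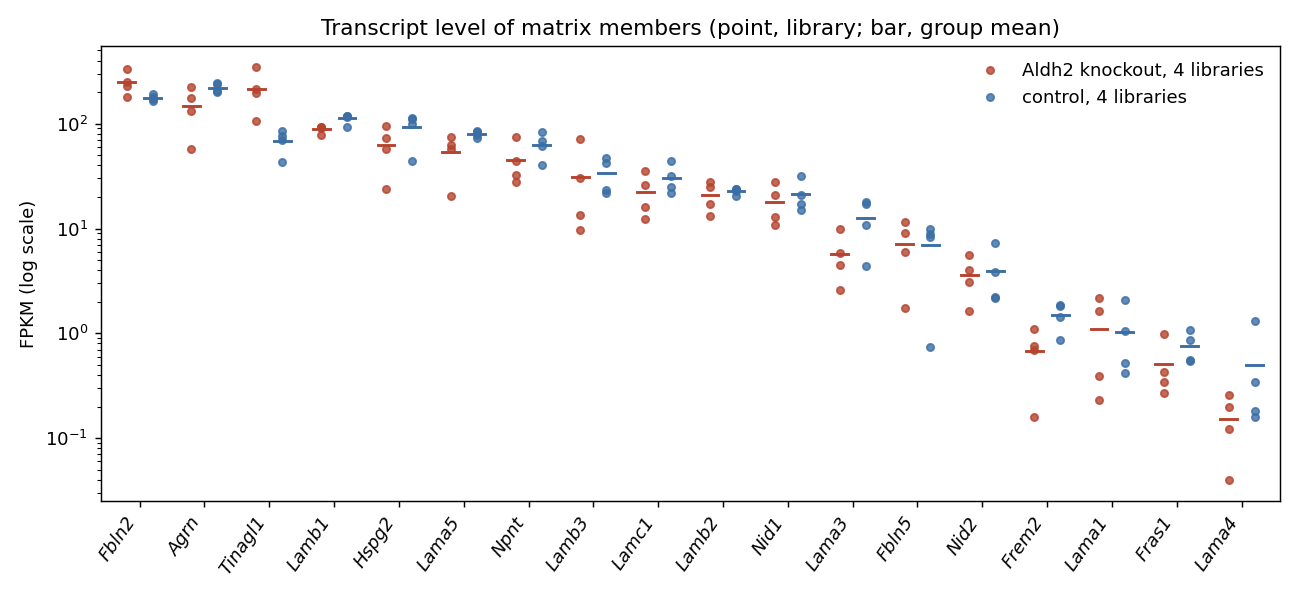
Level of the matrix members described here in FPKM on a log axis, ordered by mean, with knockout libraries left (red) and control libraries right (blue). Points are libraries and bars group means. Tinagl1 and Lamb1 are the 2 members whose groups do not overlap, and Lamb3 and Lama3 are widely spread among knockouts.

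Of the chains of α5β1γ1 and α5β2γ1, the laminins typical of mature tubules, the β chain Lamb1 was the most abundant. Lamb1 (ENSMUSG00000002900, GRCm38 chromosome 12, 31265234 to 31329644) read 77.7, 92.0, 93.2 and 90.7 FPKM in knockout 1 to 4, against 116, 119, 119 and 93.8 FPKM in control 1 to 4. Every knockout lay below every control, by less than 1 FPKM between knockout 3 and control 4 (88.4 ± 7.23 FPKM in knockouts and 112 ± 12.2 FPKM in controls, SD, n = 4 each; log2 fold change -0.34, SE 0.17, limma adjusted p = 0.295). After detrending on length and GC, the log2 fold change of Lamb1 was -0.08. Lama5, the α chain, read 20.4, 62.8, 74.8 and 56.9 FPKM in knockout 1 to 4, against 73.7, 83.9, 78.4 and 84.8 FPKM in control 1 to 4. Knockout 1 was the lowest library and knockout 3 lay just above control 1, so the groups overlapped by 1 library on each side. Lamc1, the shared γ chain, ranged over 12.3 to 35.7 FPKM in knockouts and 21.6 to 44.5 FPKM in controls, and Lamb2, the β chain of the other trimer, over 13.2 to 28.0 FPKM in knockouts and 20.5 to 24.1 FPKM in controls. In knockout 1 all 4 chains were at their lowest of the 8 libraries.

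The β3 and α3 laminin chains were spread widely among the knockouts, without a call. Lamb3 read 13.5, 9.59, 70.9 and 30.4 FPKM in knockout 1 to 4, against 21.7, 42.1, 47.4 and 23.3 FPKM in control 1 to 4. Knockout 3 was the highest of all 8 libraries for Lamb3, and knockout 2 the lowest. Lama3, whose symbol also covers a short and a long chain not separated here, read 4.44, 2.61, 9.81 and 5.82 FPKM in knockout 1 to 4, against 10.8, 17.0, 17.8 and 4.42 FPKM in control 1 to 4, again lowest in knockout 2. The summed markers of tubular epithelium were 1532, 872, 6664 and 3194 FPKM in knockout 1 to 4, against 1988, 2614, 3258 and 1466 FPKM in control 1 to 4, with the same highest and lowest library as Lamb3. By the markers' median relative to the control mean, on the log2 scale, knockout 2 was again lowest at -1.39. Knockout 4 was then highest at 0.48, with knockout 3 at 0.02. The part of these markers in the laminin values was not tested.

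Without knockout 3 and 4, the laminin chains Lama3, Lama5, Lamb2 and Lamb3 were lower at an unadjusted p below 0.05, with 8.43% of all genes lower at that level, and with all libraries none of these was (11.6% of all genes lower). Without knockout 1 and 2 none of them was (31.3% of all genes lower at that level), and Lamb3 and Lamb2 then had higher knockout means. Knockout 1 and 2 are the female libraries and all controls are male, so sex and library cannot be told apart here.

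**Figure D2:**
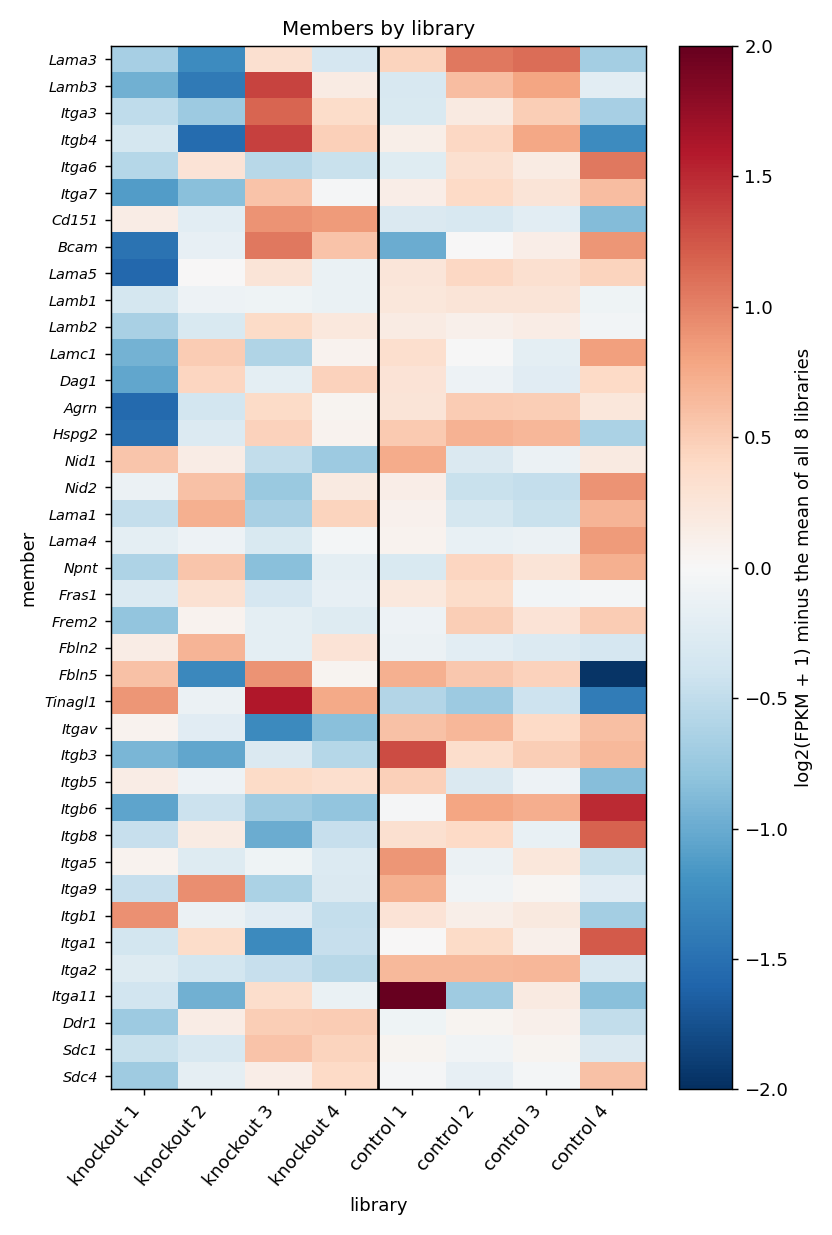
Log2(FPKM + 1) of the members described here minus each one's mean over the 8 libraries, by library, knockouts left of the line and controls right. Lama3, Lamb3, Itga3 and Itgb4 are low in knockout 2 and all 4 are above their mean in knockout 3, whereas Itgb3 and Itgb6 are below their mean in all 4 knockouts.

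The remaining laminin chains were scarce. Lama1, the α chain of the embryonic trimer, ranged over 0.230 to 2.18 FPKM in knockouts and 0.420 to 2.08 FPKM in controls. Lama4, an α chain of endothelial and mesenchymal basement membranes, ranged over 0.0398 to 0.256 FPKM in knockouts and 0.160 to 1.31 FPKM in controls, its highest value being in control 4. Lama4 rests on as few as 9 recovered reads in knockout 3.

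The proteoglycans that bind laminin followed Lama5 in being lowest in knockout 1. Agrin (Agrn), which joins laminin to dystroglycan, read 57.5, 131, 223 and 176 FPKM in knockout 1 to 4, against 203, 242, 239 and 199 FPKM in control 1 to 4. Knockout 3 lay within the control range and the other 3 knockouts below it (147 ± 70.5 FPKM in knockouts and 221 ± 22.8 FPKM in controls, SD, n = 4 each; log2 fold change -0.74, SE 0.37, limma adjusted p = 0.302). Perlecan (Hspg2), a heparan sulfate proteoglycan, read 23.7, 56.8, 95.2 and 72.2 FPKM in knockout 1 to 4, against 100.2, 113, 110.5 and 44.1 FPKM in control 1 to 4. Knockout 1 was the lowest and control 4 the next lowest. The nidogens, which bridge laminin and collagen IV, showed no such order: Nid1 ranged over 10.8 to 27.5 FPKM in knockouts and 14.9 to 31.7 FPKM in controls and Nid2 over 1.64 to 5.64 FPKM in knockouts and 2.18 to 7.29 FPKM in controls. Without knockout 3 and 4, the log2 difference of Agrn was -1.33, without knockout 1 and 2 -0.15, and after detrending -0.57. Detrending took Hspg2 to -0.30, against -0.63 without it.

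Nephronectin (Npnt), the ligand of integrin α8β1 in kidney development, read 32.5, 74.5, 27.7 and 43.6 FPKM in knockout 1 to 4, against 40.4, 67.9, 60.6 and 82.8 FPKM in control 1 to 4, with knockout 3 lowest and control 4 highest. Fras1 and Frem2, parts of the Fraser complex that anchors epithelium to its matrix and acts through nephronectin, were below 2 FPKM in every library. Frem2 read 0.160, 1.11, 0.752 and 0.690 FPKM in knockout 1 to 4, against 0.869, 1.83, 1.43 and 1.87 FPKM in control 1 to 4. Only knockout 2 reached the control range. Frem2 is 13255 bp long, and its log2 difference was -0.59 (limma unadjusted p = 0.0284), against -0.22 after detrending on length and GC (limma unadjusted p = 0.317), so it was then no longer below 0.05. Fras1, at 17709 bp, ranged over 0.271 to 0.982 FPKM in knockouts and 0.550 to 1.08 FPKM in controls.

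Tinagl1, tubulointerstitial nephritis antigen-like 1, a secreted matricellular protein of basement membranes, was the matrix member with the largest difference. Tinagl1 (ENSMUSG00000028776, GRCm38 chromosome 4, 130164454 to 130175122) read 213, 106, 350.1 and 196 FPKM in knockout 1 to 4, against 76.0, 69.5, 86.1 and 43.3 FPKM in control 1 to 4. Every knockout exceeded every control, with knockout 2 nearest to them and knockout 3 farthest (216 ± 101 FPKM in knockouts and 68.7 ± 18.3 FPKM in controls, SD, n = 4 each; log2 fold change 1.56, SE 0.36, limma adjusted p = 0.115). Tinagl1 is 4358 bp long, and after detrending on length and GC its log2 fold change was 1.46. It was 1.16 without knockout 3 and 4 and 1.96 without knockout 1 and 2, where it passed (limma adjusted p = 0.00535). In that fit 44.4% of all genes passed, 17.6% of all genes being higher.

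The fibulins are calcium-binding glycoproteins of elastic fibres and basement membranes. Fbln2, the matrix member with the highest mean over the 8 libraries, though below Agrn in controls, read 231, 335, 181 and 252 FPKM in knockout 1 to 4, against 192, 179, 172 and 164 FPKM in control 1 to 4. Knockout 3 lay within the control range and the other 3 knockouts above it (249.9 ± 63.9 FPKM in knockouts and 177 ± 12.0 FPKM in controls, SD, n = 4 each; log2 fold change 0.46, SE 0.22, limma adjusted p = 0.281). After detrending, the log2 fold change of Fbln2 was 0.49. Fbln5, an elastic fibre fibulin, read 9.05, 1.74, 11.6 and 5.95 FPKM in knockout 1 to 4, against 9.97, 8.79, 8.29 and 0.734 FPKM in control 1 to 4. Control 4 was the lowest library and knockout 2 the next lowest, and the groups otherwise overlapped.

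Receptors held the members nearest to the threshold. Of 21, 15 had lower knockout means and 6 higher, or 13 and 8 after median-ratio scaling, with a median log2 difference of -0.23. At an unadjusted p below 0.05 were 7 of 21. Of these, 6 were lower, all integrin chains (Itgb3, Itgb6, Itgav, Itga2, Itgb8 and Itga1), with 11.6% of all genes lower at that level, and Cd151 was higher, with 7.58% of all genes higher. After detrending on length and GC, 3 of the 6 integrin chains were below that level (Itgb3, Itgb6 and Itgav), with 10.8% of all genes lower. Without detrending, 5 of the 10 markers of tubular epithelium had higher means and 5 lower. Among these 10, Epcam, Cdh1 and Lhx1 were lower at the same level and none was higher. The part of the epithelial markers in the integrin values was not tested. The integrins as a family were lower in mean for 12 of 15 chains, or 11 of 15 after median-ratio scaling or after detrending on length and GC, and the other 6 receptors had a median log2 difference of 0.06, or -0.05 after detrending on length and GC.

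**Figure D3:**
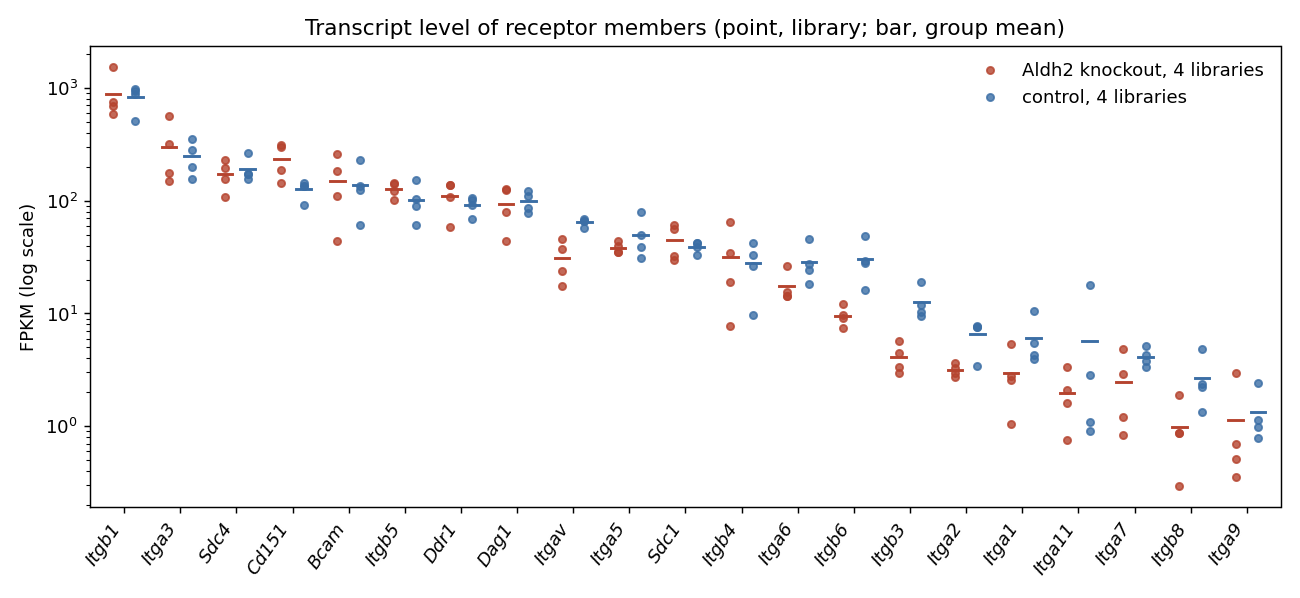
Level of each receptor member in FPKM on a log axis, ordered by mean, with knockout libraries left (red) and control libraries right (blue). Points are libraries and bars group means. Itgb1 is the highest, Itgav, Itgb6 and Itgb3 are lower in every knockout and Cd151 is higher in every knockout.

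Itgb1, the β chain shared by most matrix integrins, was the most abundant member. Itgb1 read 1534, 748, 694 and 587 FPKM in knockout 1 to 4, against 987, 884, 931 and 506 FPKM in control 1 to 4. Knockout 1 was the highest and control 4 the lowest library, and the groups overlapped (891 ± 434 FPKM in knockouts and 827 ± 218 FPKM in controls, SD, n = 4 each; log2 fold change 0.05, SE 0.37, limma adjusted p = 0.951). The log2 fold change of Itgb1 was -0.33 without knockout 1 and 2 and 0.42 without knockout 3 and 4, so its direction rested on which knockouts were included, and it was 0.20 after detrending.

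Integrin αv pairs with β1, β3, β5, β6 or β8 and binds ligands with an RGD motif such as vitronectin, fibronectin and the latency peptide of TGF-β. Itgav (ENSMUSG00000027087, GRCm38 chromosome 2, 83724397 to 83806916) read 45.8, 37.0, 17.4 and 23.9 FPKM in knockout 1 to 4, against 65.6, 69.0, 57.7 and 66.1 FPKM in control 1 to 4. Every knockout lay below every control, with knockout 3 and 4 lowest (31.0 ± 12.8 FPKM in knockouts and 64.6 ± 4.81 FPKM in controls, SD, n = 4 each; log2 fold change -1.12, SE 0.28, limma adjusted p = 0.133). Itgav is 10744 bp long, and after detrending on length and GC its log2 fold change was -0.59, still with an unadjusted p below 0.05. It was -0.63 without knockout 3 and 4 and -1.61 without knockout 1 and 2. A gene model on the other strand, Gm13684, covers 5.90% of its exon bases, and the sources do not say whether counting used strand.

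The β6 chain is largely confined to epithelia and its αvβ6 dimer activates TGF-β. Itgb6 (ENSMUSG00000026971, GRCm38 chromosome 2, 60598292 to 60722643) read 7.39, 12.0, 9.72 and 9.11 FPKM in knockout 1 to 4, against 16.2, 29.1, 27.8 and 48.4 FPKM in control 1 to 4. The 4 knockouts lay close together and below all controls, which were spread widely with control 4 highest (9.56 ± 1.92 FPKM in knockouts and 30.4 ± 13.3 FPKM in controls, SD, n = 4 each; log2 fold change -1.49, SE 0.30, limma adjusted p = 0.0996). After detrending on length and GC, the log2 fold change of Itgb6 was -1.12, without knockout 3 and 4 -1.49, and without knockout 1 and 2 -1.49. In male libraries after detrending it was -0.75 (limma adjusted p = 0.177).

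The β3 chain makes the αvβ3 vitronectin receptor. Itgb3 (ENSMUSG00000020689, GRCm38 chromosome 11, 104608000 to 104670476) read 3.33, 2.96, 5.67 and 4.49 FPKM in knockout 1 to 4, against 19.0, 9.40, 10.4 and 11.8 FPKM in control 1 to 4. The highest knockout, knockout 3, lay below the lowest control, control 2 (4.11 ± 1.23 FPKM in knockouts and 12.6 ± 4.34 FPKM in controls, SD, n = 4 each; log2 fold change -1.40, SE 0.25, limma adjusted p = 0.0968). Its adjusted p was the lowest of all members. The log2 fold change of Itgb3 was -1.33 after detrending on length and GC, -1.67 without knockout 3 and 4 and -1.12 without knockout 1 and 2.

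The other partners of αv went separate ways. Itgb8, the scarcest, read 0.869, 1.89, 0.294 and 0.872 FPKM in knockout 1 to 4, against 2.21, 2.39, 1.33 and 4.80 FPKM in control 1 to 4, and knockout 2 lay within the control range. Its log2 difference was -0.29 after detrending, against -0.87 without it. Itgb5, the most abundant β chain after Itgb1, read 122, 102, 145 and 139 FPKM in knockout 1 to 4, against 153, 90.4, 103 and 60.8 FPKM in control 1 to 4, so its groups overlapped and its knockout mean was higher. In FPKM the order Itgb5, Itgb6, Itgb3, Itgb8 held for the group means of both genotypes.

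**Figure D4:**
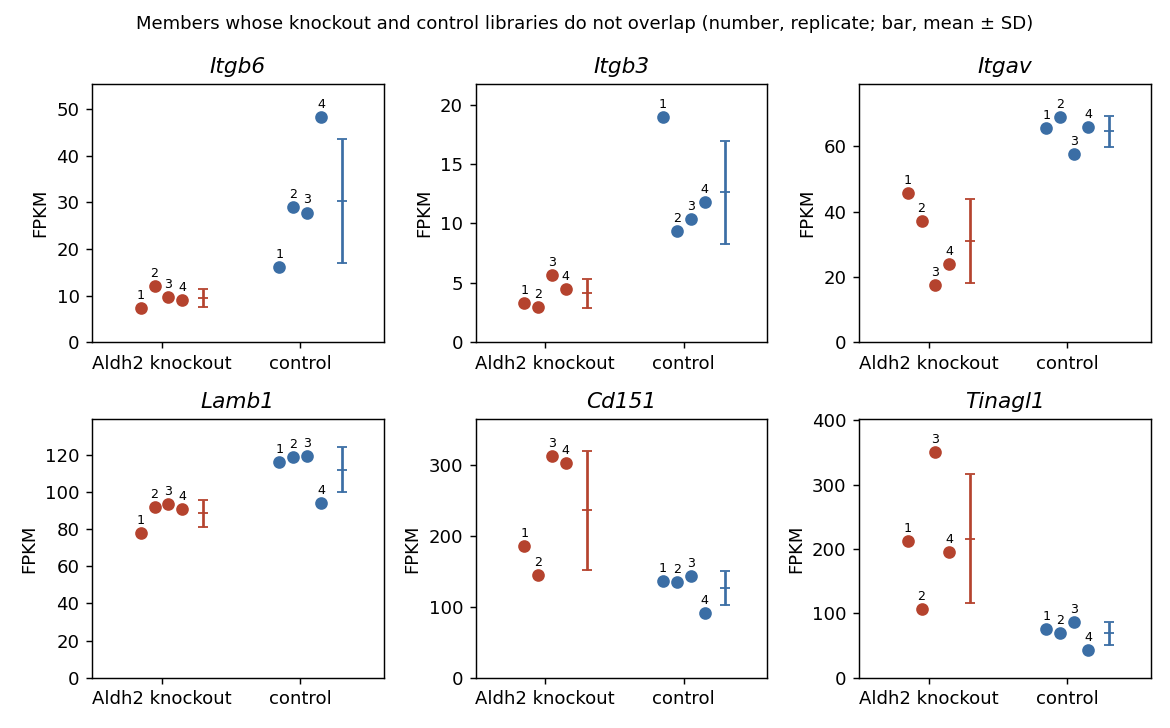
FPKM of the 6 members whose groups do not overlap, with knockouts left and controls right, numbered by replicate. Bars give mean ± SD (n = 4 each). Itgb6, Itgb3, Itgav and Lamb1 are lower in every knockout, with Lamb1 separated by less than 1 FPKM, and Cd151 and Tinagl1 are higher in every knockout.

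The laminin receptors of epithelium are α3β1, α6β1 and α6β4, the last sitting in hemidesmosomes. Itga3, the most abundant α chain, read 175, 149, 559 and 321 FPKM in knockout 1 to 4, against 200.1, 282, 350.5 and 156 FPKM in control 1 to 4. Knockout 3 was the highest and knockout 2 the lowest library, as for Lamb3 (301 ± 188 FPKM in knockouts and 247 ± 86.3 FPKM in controls, SD, n = 4 each; log2 fold change 0.15, SE 0.43, limma adjusted p = 0.856). Itgb4 read 18.9, 7.73, 64.4 and 34.5 FPKM in knockout 1 to 4, against 26.6, 32.8, 42.4 and 9.65 FPKM in control 1 to 4, with the same highest and lowest library. Itga6, the partner of β4, did not share that order and read 14.2, 26.4, 14.4 and 15.6 FPKM in knockout 1 to 4, against 18.2, 27.2, 24.2 and 45.7 FPKM in control 1 to 4, with knockout 2 apart from the other knockouts and control 4 highest. After detrending, the log2 difference was 0.14 for Itga3, and -0.31 for Itga6, against -0.65 without it. Itga7, a laminin receptor known from muscle, ranged over 0.839 to 4.88 FPKM in knockouts and 3.36 to 5.11 FPKM in controls.

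Collagen-binding α chains were lower in mean in knockouts, without a call. Itga2, which pairs with β1 to bind collagens and laminin, read 3.62, 3.27, 3.00 and 2.75 FPKM in knockout 1 to 4, against 7.66, 7.65, 7.68 and 3.40 FPKM in control 1 to 4. The 4 knockouts lay close together, and control 4 lay among them while control 1 to 3 were alike and higher. Detrending took the log2 difference of Itga2 to -0.43, against -0.82 without it. Itga1, a receptor of collagen IV, ranged over 1.05 to 5.36 FPKM in knockouts and 3.97 to 10.5 FPKM in controls. At 18599 bp Itga1 is the longest member, and its log2 difference was -0.15 after detrending on length and GC, against -0.86 without detrending. Itga11, a fibrillar collagen receptor of fibroblasts, read 1.61, 0.752, 3.37 and 2.12 FPKM in knockout 1 to 4, against 18.1, 1.09, 2.86 and 0.910 FPKM in control 1 to 4, with control 1 far above the rest. Of the 9 measured fibroblast and pericyte markers 2 had higher means and 7 lower, and their sum was 1772, 599, 1166 and 787 FPKM in knockout 1 to 4, against 1192, 479.9, 595 and 140.0 FPKM in control 1 to 4, highest in knockout 1. By the markers' median relative to the control mean, on the log2 scale, knockout 1 was instead lowest at -1.59 and control 1 highest. Itga11 was highest in control 1 too. The part of these markers in the integrin values was not tested.

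Of the fibronectin receptors, Itga5 ranged over 34.8 to 44.3 FPKM in knockouts and 30.7 to 78.7 FPKM in controls and was highest in control 1. Itga9, which binds tenascin and osteopontin, ranged over 0.354 to 2.97 FPKM in knockouts and 0.787 to 2.43 FPKM in controls. Neither set of groups was separated.

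Cd151, a tetraspanin that associates with α3β1 and α6 integrins and whose loss damages the glomerular basement membrane in mice, was the receptor member higher in every knockout. Cd151 (ENSMUSG00000025510, GRCm38 chromosome 7, 141467392 to 141471473) read 185, 144, 312 and 302 FPKM in knockout 1 to 4, against 136, 134, 144 and 91.5 FPKM in control 1 to 4. Knockout 3 and 4 stood well above the controls, while knockout 2 exceeded control 3 by less than 1 FPKM (236 ± 83.9 FPKM in knockouts and 126 ± 23.6 FPKM in controls, SD, n = 4 each; log2 fold change 0.84, SE 0.29, limma adjusted p = 0.195). The log2 fold change of Cd151 was 0.62 after detrending, 0.39 without knockout 3 and 4 and 1.29 without knockout 1 and 2. An unnamed gene model on the other strand, Gm10575, covers 7.04% of the exon bases of Cd151.

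The other receptors were abundant and mixed in direction. Sdc4, a heparan sulfate syndecan of focal adhesions, read 108, 156, 194 and 232 FPKM in knockout 1 to 4, against 173, 157, 172 and 264 FPKM in control 1 to 4, with the groups overlapping (172 ± 53.0 FPKM in knockouts and 191 ± 49.0 FPKM in controls, SD, n = 4 each; log2 fold change -0.17, SE 0.28, limma adjusted p = 0.732). After detrending, the log2 fold change of Sdc4 was -0.28. Sdc1, the epithelial syndecan, ranged over 29.6 to 60.7 FPKM in knockouts and 33.0 to 42.4 FPKM in controls. Dystroglycan (Dag1), which binds laminin and agrin through its sugars, ranged over 44.1 to 126 FPKM in knockouts and 77.9 to 121 FPKM in controls. Bcam, the Lutheran receptor of laminin α5, read 43.6, 110.2, 257 and 184 FPKM in knockout 1 to 4, against 61.3, 124, 136 and 229 FPKM in control 1 to 4, and knockout 1 and control 1 were its lowest libraries. Ddr1, a collagen receptor tyrosine kinase of epithelia, ranged over 58.5 to 139 FPKM in knockouts and 69.2 to 105 FPKM in controls. For Sdc4, Sdc1, Dag1, Bcam and Ddr1 alike, knockout 1 was the lowest of the 8 libraries.

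**Figure D5:**
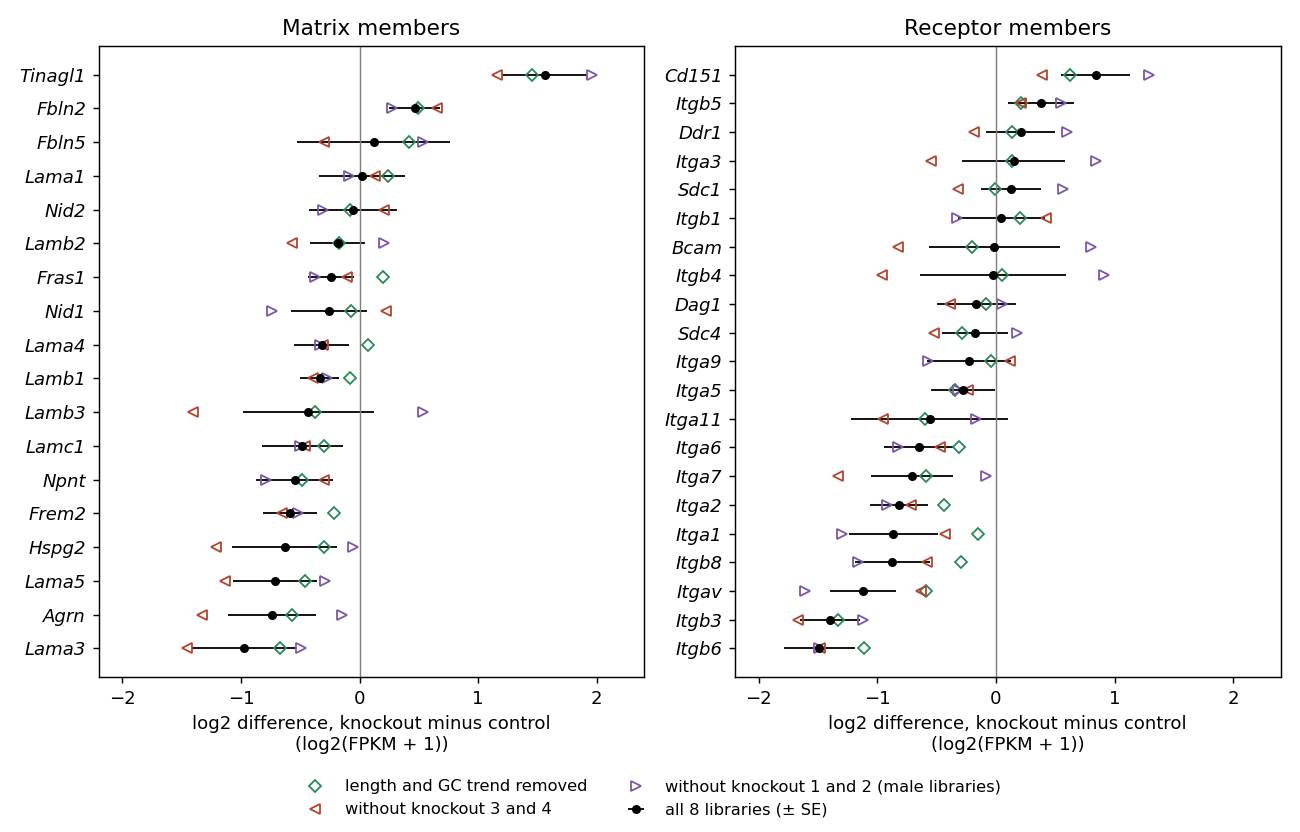
Log2 difference of the members described here, knockout minus control, on log2(FPKM + 1), matrix members left and receptors right. Black points with bars are all 8 libraries ± SE, and open symbols are the same value after detrending on length and GC, without knockout 3 and 4, or without knockout 1 and 2. Itgb6, Itgb3, Itgav and Tinagl1 keep their side of 0 in all 4, while Lamb3, Bcam, Itga3 and Itgb4 lie on opposite sides of 0 in the 2 pairs of knockouts. So do Lamb2, Nid1, Nid2, Fbln5, Lama1, Itgb1, Sdc4, Sdc1, Ddr1, Dag1 and Itga9. For Itgb6, Itgb3, Itgav and Tinagl1 the groups do not overlap, so leaving out knockouts could not change their side.

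Libraries differed in how often they were extreme. Knockout 1 was the lowest of the 8 libraries for 15 of 40 members, compared with 23.9% of all genes, and the highest for 1 of 40, compared with 20.8% of all genes. Knockout 2 was the lowest for 7 of 40, compared with 6.88% of all genes, and the highest for 3 of 40, compared with 13.4%. Control 4 was the highest for 12 of 40 members, compared with 18.6% of all genes, and the lowest for 7 of 40, compared with 15.4%. Knockout 3 was the highest for 10 of 40, compared with 16.6% of all genes, and the lowest for 9 of 40, compared with 33.4% of all genes. In control 1, 2 and 3 none was at its lowest (0 of 40), compared with 5.25%, 5.43% and 3.30% of all genes.

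Calls changed with the libraries included. Without knockout 2, 5 of 40 members passed (Itgb3, Itgb6 and Itgav lower, Tinagl1 and Cd151 higher; limma adjusted p between 0.0264 and 0.0458), with 8.05% of all genes passing (2.77% higher and 5.28% lower), and 14 of 40 were at an unadjusted p below 0.05, with 29.7% of all genes. Without knockout 1 and 2, the male libraries alone, 10 passed, 6 of them lower and 4 higher, with 44.4% of all genes passing (26.7% lower and 17.6% higher), and 14 of 40 were at an unadjusted p below 0.05, with 52.6% of all genes. The lower ones were Itgb3, Itgb6, Itgav, Itga2, Itgb8 and Itga1, and the higher ones Tinagl1, Cd151, Ddr1 and Sdc1. Without knockout 3 and 4 no member passed (0 of 40 by limma, with 0.099% of all genes passing). At an unadjusted p below 0.05 were then 13, 2 of them higher, with 16.2% of all genes at that level and 7.8% higher. In male libraries after detrending, a combination chosen after seeing the data, 4 of 40 passed (Tinagl1 and Cd151 higher, Itgb3 and Itgav lower), with 22.9% of all genes passing, and the same number were at an unadjusted p below 0.05, 2 of them higher, with 38.7% of all genes at that level and 19.7% higher.

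Other genes of basement membrane and adhesion were counted from lists chosen with earlier results known. The genes named from each list were taken from those of lowest p in it. Of all genes, 4.76% were higher in every knockout than in any control and 6.86% lower. Of 8 measured network collagens 5 had higher means and 3 lower, 1 in each direction at an unadjusted p below 0.05 (7.58% of all genes were higher and 11.6% lower at that level, and 44.5% had higher means), and the collagen IV chain Col4a2 read 212, 431, 180.3 and 406 FPKM in knockout 1 to 4, against 246, 139.7, 138 and 179.6 FPKM in control 1 to 4. Of 23 integrin adaptors 15 had higher means and 8 lower. At an unadjusted p below 0.05 (limma) 4 were higher and 2 lower, and groups did not overlap for 4 higher and 2 lower. Parvb, an actin-binding partner of integrin-linked kinase, passed and rose (12.2 ± 2.26 FPKM in knockouts and 2.69 ± 1.01 FPKM in controls, SD, n = 4 each; log2 fold change 1.87, SE 0.25, limma adjusted p = 0.0411). Fermt1, the kindlin that binds integrin β tails in epithelia, was lower in every knockout without passing, at 28.7, 25.4, 42.2 and 31.1 FPKM in knockout 1 to 4, against 64.7, 77.0, 71.8 and 48.8 FPKM in control 1 to 4 (adjusted p = 0.0996 by limma). Itgb1bp1, a binder of the β1 tail, was higher in every knockout, at 9.75, 8.10, 7.38 and 8.01 FPKM in knockout 1 to 4, against 5.47, 4.66, 4.29 and 6.11 FPKM in control 1 to 4. With limma-voom on recovered reads, and also after detrending on length and GC, no gene rose past the threshold, Parvb included (limma; 953 and 1351 genes were higher at an unadjusted p below 0.05). The same held with a pseudocount of 0.1, with the replicate block, and when knockout 1, 3 or 4 or control 1, 2 or 3 was left out singly. Without knockout 3 and 4 no integrin adaptor passed.

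Hemidesmosome genes and tetraspanins had 4 of 7 higher and none at an unadjusted p below 0.05 (0 of 7, with 19.2% of all genes). Of 15 genes of the dystroglycan complex and its glycosylation, 6 had higher means and 9 lower. At an unadjusted p below 0.05 (limma) 2 were higher and 1 lower, with 7.58% and 11.6% of all genes. Utrn, the dystrophin relative utrophin, was the only gene of this list whose groups did not overlap. It was lower in every knockout at 6.92, 11.3, 4.31 and 5.06 FPKM in knockout 1 to 4, against 15.1, 17.3, 14.8 and 12.6 FPKM in control 1 to 4. Of 16 genes of matrix assembly and crosslinking 10 had higher means and 6 lower, with 4 higher and 1 lower at that level. Groups did not overlap for 2 higher and 2 lower, with 4.76% and 6.86% of all genes. Tgm2, a crosslinking transglutaminase, was higher in every knockout at 101, 135, 112 and 125 FPKM in knockout 1 to 4, against 60.3, 49.2, 46.9 and 74.4 FPKM in control 1 to 4. Of 7 provisional matrix ligands 6 had lower means, and Thbs2, a matricellular thrombospondin, passed and fell, at 0.0550, 0.387, 0.0900 and 0.0651 FPKM in knockout 1 to 4, against 2.19, 1.99, 1.59 and 1.51 FPKM in control 1 to 4 (adjusted p = 0.0411 by limma). The call of Thbs2 was lost after detrending on length and GC and without knockout 3 and 4. The share of all genes past that threshold was 0.0212% higher and 0.0566% lower.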

How the data were processed

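RNA-seq of 8 libraries of primary mouse tubular epithelial cells was used, 4 from knockout and 4 from control mice, grouped by sample title. The deposited table holds FPKM per gene and library, which the authors made from reads; its name speaks of raw counts, but the values are FPKM. STAR 2.4.1d, FastQC, DESeq2 and the build GRCm38 are named, without their roles, per the submitters' processing notes (counter, annotation and strand setting: not given in the sources used here). Beside the FPKM stand the authors' deposited log2 fold changes and their deposited p-values, raw and adjusted, used only where named.

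From the FPKM, log2(FPKM + 1) was tested with limma 3.58.1 (R 4.3.3; trend on mean level), with Benjamini-Hochberg adjustment over all 14145 genes and a threshold of 0.05. Because of the pseudocount, fold changes of genes near or below 1 FPKM come out too small. Multiplying FPKM by exon length gave values within 0.05 read of a whole number for 95.0% to 95.5% of those checked (1 to 200 reads), hence the recovered depths, known for the 14129 genes with a length; a count fit on those reads (limma-voom) called 7 genes. Detrending subtracted a lowess curve (span 0.3) on exon length and on GC content from each library. Within-group pairs of libraries differed beyond sampling noise, so all 8 were kept. Alternatives were pseudocounts of 0.1 and 0.5, a filter (at least 1 FPKM in 4 libraries), median-ratio scaling, a sex covariate, male libraries alone, a replicate block, libraries left out, limma-voom and detrending. The fit was tested on simulated data. Full values are given for the members that the naming rule took: the most abundant of each class and those whose groups did not overlap, at a mean of at least 1 FPKM. Members, lists and tests were chosen with earlier results of these data known. A member is not reported here by name or in the figures; it is included in the fits and counts.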

Additional observations from a re-analysis of the deposited data

Results flagged for a closer look

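In groups of 4 libraries, a library was singled out where its gap to the nearest other, divided by the group's range, exceeded Dixon's critical value. Of 80 groups (40 members in knockouts and controls) 8 held such a library, and chance gives about 1 in 20. Control 4 accounted for 6: it stood below the other controls for Cd151 at 91.5 FPKM, Fbln5 at 0.734 FPKM, Hspg2 at 44.1 FPKM, Itga2 at 3.40 FPKM, Itgb1 at 506 FPKM and Lamb1 at 93.8 FPKM. Knockout 2 stood above the other knockouts for Itga6 at 26.4 FPKM, and knockout 1 below them for Lamb1 at 77.7 FPKM.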

How the results depend on the processing

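With all libraries 11 genes passed, 0 of 19 matrix members and 0 of 21 receptors; 2 matrix members and 7 receptors had an unadjusted p below 0.05. The sample titles do not say whether replicate numbers pair the libraries. Correlations of deviations were 0.0447, -0.208, 0.606 and -0.0445 for numbers 1 to 4, and 0.606 was the highest for any knockout and control. These values cannot settle whether libraries were paired. With the replicate block 1 gene passed and 4 matrix members were below 0.05 unadjusted. The share of all genes at that level is not given for this fit, so the count is not read as a result about the members. Genes passing numbered 3 with a pseudocount of 0.1, 7 with limma-voom and 2 after detrending, where 4 receptors were below 0.05 unadjusted. With a sex covariate 4838 genes, 1 matrix member and 8 receptors passed. In male libraries alone these were 6275, 1 and 9, with 4 matrix members below 0.05 unadjusted; with both, the log2 fold change was -0.33 for Itgb1 and 0.18 for Sdc4. Male libraries alone after detrending, an alternative chosen after seeing the data, gave 3243 genes, 1 matrix member and 3 receptors past the threshold, 1 and 3 below 0.05 unadjusted, medians of 0.041 (matrix) and 0.0012 (receptors), and log2 fold changes of 0.041 for Lamb1 and 0.036 for Sdc4. Without knockout 3 and 4, 9 matrix members and 4 receptors were below 0.05 unadjusted, the receptor median was -0.53 and Itga3 was at -0.54. The share of all genes at an unadjusted p below 0.05 was 19.2% with all libraries, 20.3% after detrending and 52.6% in male libraries alone. It was 38.7% in male libraries after detrending and 16.2% without knockout 3 and 4. The causes of the changes between fits were not tested.

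Leaving out 1 library at a time gave 1 (without knockout 1) to 1139 (without knockout 2) genes, 0 to 1 matrix members and 0 to 4 receptors past the threshold, 1 to 8 and 4 to 9 below 0.05 unadjusted, and log2 fold changes of -0.21 to 0.42 for Itga3, -0.25 to 0.21 for Itgb1 and -0.33 to 0.031 for Sdc4. Of all genes 29.7% were below 0.05 unadjusted without knockout 2. That share is not given for the other omissions, so these counts are not read as results about the members. Tinagl1, Cd151, Itgav, Itgb3 and Itgb6 kept their direction in all 19 alternatives, with adjusted p between 0.00324 (Itgav) and 0.447 (Cd151). Their groups do not overlap, so fits that only leave out libraries could not change that direction. The replicate block and the filter return the log2 fold change of all libraries, so they could not change it either. The sex covariate returns that of male libraries alone, so it adds nothing to that fit. Agrn and Fbln2, whose groups overlap, also kept theirs, at log2 fold changes of -1.33 to -0.042 and 0.15 to 0.65. For these genes too, the replicate block and the filter could not change the direction.

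Depth limits the scarce members: Lama4 had as few as 9 recovered reads in a library. Exons of Nid2, Itgb4, Cd151, Itgav and Ddr1 overlap a gene on the other strand by 8.45%, 7.66%, 7.04%, 5.90% and 4.52%.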
